A study of Oryza sativa with 12 samples.

Results

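The levels that rice anthers reached after a cold night were compared between a cold-susceptible and a cold-tolerant cultivar, S.AND COLD against ERY COLD. A gene entered the comparison when its group mean was at least 1 RPKM, a read count scaled to the length of the gene model and to the size of the library, in one of those groups. This held for 24244 of 55985 gene models (43.3%). S.AND is the cultivar Sant'Andrea, labelled cold-stress susceptible, and ERY is Erythroceros Hokkaido, labelled cold-stress tolerant. The COLD plants of each cultivar spent 1 night at 8 °C, and the CONTROL plants spent it at 24 °C. Each of the 4 groups (S.AND COLD, ERY COLD, S.AND CONTROL, ERY CONTROL) comprised 3 samples, so that 6 of the 12 samples of the study were cold-treated. A sample was a pool of anthers from several plants, dissected from spikelets of the middle panicle when the lights came on. The paper reports whitish spikelets with damaged anthers in cold-treated S.AND plants. Only anthers of normal anatomy were used further, so the S.AND COLD levels do not stand for all cold-treated S.AND anthers. The distance between the auricles of the last leaves, used to pick post-meiotic anthers, was set for each cultivar on its own, so differences of cultivar and of developmental timing cannot be told apart.

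Only one mean per group and gene was analysed here. A difference between cultivars therefore has no replicate check, no standard deviation and no p-value, and the number of reads behind a mean is unknown. Differences are given as log2(S.AND COLD / ERY COLD), positive where S.AND COLD was higher, and the CONTROL ratio is given beside it because it comes from other samples. Of the gene models with a higher COLD mean from 1 to 1.1 RPKM, 356 were kept, and the 389 from 0.9 up to 1 RPKM were left out. The highest level left out was 0.9999 RPKM. Reads of both cultivars were mapped to the gene models of another cultivar, Nipponbare, and in a pooled tissue a smaller number of cells of a type and less RNA per cell cannot be told apart. A gene that a cultivar lacks, or carries in a diverged copy, cannot be told apart from a gene that it does not transcribe.

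Post-meiotic anthers hold young microspores surrounded by the tapetum, a secretory layer that feeds them, supplies the lipid and phenolic monomers of sporopollenin for the pollen wall, and then degenerates. The tapetal enzymes of that route act in order on fatty acids: hydroxylases and an acyl-CoA synthetase prepare them, polyketide synthases extend them and reductases finish the product, which ABC transporters and lipid transfer proteins export. Low temperature at this stage is a known cause of male sterility in rice. Of 10 chosen anther and tapetum marker genes, none was listed at 0 in either COLD group. Their summed levels were 28669 RPKM in S.AND COLD and 25647 RPKM in ERY COLD. Most of each sum was OsC6, with 19829 RPKM in S.AND COLD and 20286 RPKM in ERY COLD. By at least 2-fold, 3 of the 10 were higher in S.AND COLD and 0 in ERY COLD, with a median log2 ratio of 0.62. The lowest level among the 10 was 0.762 RPKM, that of OsPKS2 in ERY COLD. Some tapetal genes outside these 10 were also low in ERY COLD, as given below. The genes of green tissue were 19 genes of the photosynthetic antenna and photosystems that the study had called cold-changed. They summed to 432 RPKM in S.AND COLD and 799 RPKM in ERY COLD, against 1586 RPKM in S.AND CONTROL and 1713 RPKM in ERY CONTROL. A pair of genes tied to starch filling of pollen, OsGBSSI and OsUGP2, summed to 16.8 RPKM in S.AND COLD and 40.7 RPKM in ERY COLD, with 9.76 RPKM in S.AND CONTROL and 49.9 RPKM in ERY CONTROL. These sums were mostly OsUGP2, with 16.8 RPKM in S.AND COLD and 38.1 RPKM in ERY COLD. The pair does not stand for starch genes at large: of 23 starch synthesis genes, 21 were within 2-fold, with a median log2 ratio of -0.01. The part of these markers in the other results was not tested. The 10 most abundant genes took 8.66% of all RPKM in S.AND COLD and 9.28% in ERY COLD.

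The study picked 6 genes for quantitative RT-PCR because their levels differed between groups, and 5 of them turned out to separate the cultivars in the cold. The primers of those 5 are shown because they define the transcripts that the study assayed a second way. They are the study's own oligonucleotides, written 5′ to 3′ with the last 6 bases, from which the polymerase extends, in capitals.
MARbp forward: tgaatgcctacagcGAGATG
MARbp reverse: ttggcctcctttacCAAGTC
OsFAD3 forward: agcttgctttccttCCTTCC
OsFAD3 reverse: aatttgaggggaggTGTTTG
igA FC receptor forward: gtttccgaaggtgcCTGAAC
igA FC receptor reverse: gaagtggaactcagGCTTGG
OsMYB5 forward: tgagcaatagcgatGACGAG
OsMYB5 reverse: aggccagtgttcttCTGCAC
LOC_Os02g30470 forward: gtccttcagacagcGAGAGC
LOC_Os02g30470 reverse: atcgcttctcctcaATCTGC
All 10 primers are 20 bases long, with a GC content of 45.0% to 60.0%. The genes lie on chromosomes 12, 11, 7, 5 and 2 in the order listed.

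Each of these 5 genes was low in one cultivar and higher in the other, with and without cold. The gene named igA FC receptor (LOC_Os07g40890) had 486 RPKM in S.AND COLD and 0.414 RPKM in ERY COLD, a log2 ratio of 10.20, and 501 RPKM in S.AND CONTROL and 0.719 RPKM in ERY CONTROL. OsFAD3 (LOC_Os11g01340), which encodes a fatty acid desaturase, had 423 RPKM in S.AND COLD and 1.43 RPKM in ERY COLD (log2 ratio 8.21), and 278 RPKM in S.AND CONTROL and 1.29 RPKM in ERY CONTROL. Both had far higher levels in S.AND than in ERY in both treatments. OsFAD3 lies at the beginning of chromosome 11, which has a near-identical copy on chromosome 12. Its reads may have been shared with that copy, so its ratio is uncertain. MARbp (LOC_Os12g20410) was the reverse, with 0.0714 RPKM in S.AND COLD and 68.5 RPKM in ERY COLD (log2 ratio -9.91), and 0.0919 RPKM in S.AND CONTROL and 79.6 RPKM in ERY CONTROL. LOC_Os02g30470, described only as an expressed protein, had 0.653 RPKM in S.AND COLD and 71.8 RPKM in ERY COLD (log2 ratio -6.78), against 1.36 RPKM in S.AND CONTROL and 110.1 RPKM in ERY CONTROL. The smallest difference of the 5 was that of the MYB factor gene OsMYB5 (LOC_Os05g41166), with 4.42 RPKM in S.AND COLD and 35.4 RPKM in ERY COLD (log2 ratio -3.0), and a CONTROL log2 ratio of -4.17. The sixth gene, the splicing factor gene U2AF (LOC_Os09g31482), was close in both cultivars, at 23.3 RPKM in S.AND COLD and 20.4 RPKM in ERY COLD. So were the reference genes: OsUBQ had 1128 RPKM in S.AND COLD and 992 RPKM in ERY COLD, and NABP had 36.0 RPKM in S.AND COLD and 28.8 RPKM in ERY COLD. Since the study picked the 6 genes on these samples, they are no independent sample of the differences.

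Most genes stood at similar levels in the cold-treated anthers of both cultivars. Among 24063 genes with both COLD means above 0, the median log2 ratio was 0.005, the middle 50% lay between -0.31 and 0.24, and 20908 genes (86.9%) were within 2-fold. At least 2-fold higher in S.AND COLD were 1588 genes (6.60%), and at least 2-fold higher in ERY COLD were 1567 genes (6.51%). The larger folds leaned to S.AND up to 32-fold: 694 genes (2.88%) were higher in S.AND COLD by at least 4-fold and 549 (2.28%) in ERY COLD, and at 8-fold there were 406 genes (1.69%) in S.AND COLD and 338 (1.40%) in ERY COLD. At 64-fold the counts were 130 genes in S.AND COLD and 145 in ERY COLD. A ratio against a mean below 1 RPKM is imprecise, because the reads behind such a mean are few and not known in number.

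**Figure D1:**
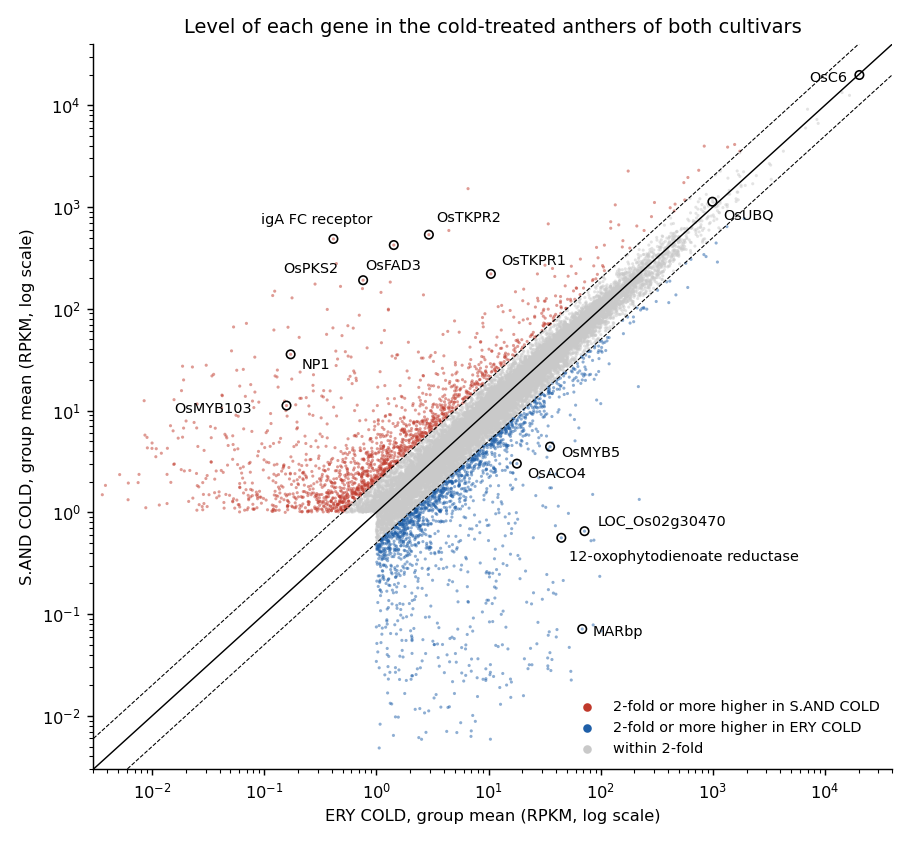
Each point is one of the 24063 genes with both COLD means above 0; the vertical axis is the S.AND COLD group mean and the horizontal axis the ERY COLD group mean, both in RPKM on log scales, with the solid line at equal levels and dashed lines at 2-fold. Red points (1588 genes) lie 2-fold or more toward S.AND COLD and blue points (1567 genes) toward ERY COLD, while OsC6 and OsUBQ sit near the solid line.

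How often genes differed depended on their level. Between 1 and 5 RPKM in the higher group, 13.3% of 6524 genes were higher in S.AND COLD by at least 2-fold and 12.4% in ERY COLD, whereas between 10 and 100 RPKM the shares were 3.17% and 3.78% of 12187 genes. Between 100 and 1000 RPKM they were 3.95% and 1.90% of 1998 genes. Of 81 genes at 1000 RPKM or more, 13 (16.0%) were higher in S.AND COLD by at least 2-fold and 4 (4.94%) in ERY COLD. Among those 13 were 4 genes of pollen wall lipids described next, DPW, CYP704B2, OsACOS12 and OsPKS1.

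A further 181 genes were listed at 0 in one COLD group, and no fold is given for them. Of these, 109 were at 0 in S.AND COLD and 72 in ERY COLD, with levels in the other cultivar of up to 67.6 RPKM and 29.6 RPKM. In the CONTROL group of the same cultivar, 41 of the 109 and 46 of the 72 were also listed at 0. Only a pair of them carried an informative description. An SCP-like extracellular protein gene (LOC_Os07g14070) was listed at 0 in S.AND COLD and had 7.37 RPKM in ERY COLD, against 0 in S.AND CONTROL and 1.22 RPKM in ERY CONTROL. A transmembrane protein 17 gene (LOC_Os12g07420) was likewise at 0 in S.AND COLD and had 4.52 RPKM in ERY COLD, against 0 in S.AND CONTROL and 13.5 RPKM in ERY CONTROL.

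Pollen wall and cuticle lipid genes were the list furthest toward S.AND COLD. Of 15 expressed members, 10 were higher in S.AND COLD by at least 2-fold and 0 in ERY COLD, against 6.60% and 6.51% of all genes, and the median log2 ratio was 1.62, against 0.005 over all genes. The same shares of all genes stand behind the counts of the other lists. In the CONTROL anthers the median was 2.50 and 11 members exceeded 2-fold toward S.AND. The differences ran through successive steps of the sporopollenin route. For the first step, the fatty acid hydroxylase gene CYP703A3 had 717 RPKM in S.AND COLD and 123 RPKM in ERY COLD, against 1261 RPKM in S.AND CONTROL and 115 RPKM in ERY CONTROL. CYP704B2, which hydroxylates the end of the fatty acid chain, had 1951 RPKM in S.AND COLD and 600.0 RPKM in ERY COLD, a log2 ratio of 1.70. OsACOS12, the acyl-CoA synthetase gene, had 2297 RPKM in S.AND COLD and 749 RPKM in ERY COLD, and DPW, a fatty acyl carrier protein reductase gene, had 1108 RPKM in S.AND COLD and 302 RPKM in ERY COLD. Transcripts of these early enzymes were thus abundant in both cultivars.

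At the polyketide step the paired genes behaved unequally, while at the reductase step both genes were far lower in ERY COLD, to different extents. OsPKS1, a polyketide synthase gene, had 4117 RPKM in S.AND COLD and 1566 RPKM in ERY COLD, a log2 ratio of 1.39. Its relative OsPKS2 had 191 RPKM in S.AND COLD and 0.762 RPKM in ERY COLD (log2 ratio 7.97), against 343 RPKM in S.AND CONTROL and 0.646 RPKM in ERY CONTROL. OsPKS2 was thus low in ERY in both treatments, while OsPKS1 was abundant in both cultivars. The tetraketide alpha-pyrone reductase gene OsTKPR2 had 535 RPKM in S.AND COLD and 2.94 RPKM in ERY COLD (log2 ratio 7.51), against 914 RPKM in S.AND CONTROL and 1.63 RPKM in ERY CONTROL. OsTKPR1, the other reductase gene, had 220.3 RPKM in S.AND COLD and 10.5 RPKM in ERY COLD (log2 ratio 4.39), against 344 RPKM in S.AND CONTROL and 10.1 RPKM in ERY CONTROL. NP1, an oxidoreductase gene of the glucose-methanol-choline family needed for pollen wall formation, had 35.7 RPKM in S.AND COLD and 0.172 RPKM in ERY COLD (log2 ratio 7.70). In CONTROL anthers NP1 had 78.7 RPKM in S.AND and 0.234 RPKM in ERY.

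The export and surface genes were closer. The transporter gene PDA1/OsABCG15 had 467 RPKM in S.AND COLD and 158 RPKM in ERY COLD, but OsABCG26, another transporter gene of the same class, had 262 RPKM in S.AND COLD and 238 RPKM in ERY COLD. OsC6, a tapetal lipid transfer protein gene and the most abundant member, had 19829 RPKM in S.AND COLD and 20286 RPKM in ERY COLD, a log2 ratio of -0.03. OsC4, a second lipid transfer protein gene, had 3411 RPKM in S.AND COLD and 1740 RPKM in ERY COLD (log2 ratio 0.97). OsRAFTIN1, whose product coats the tapetal Ubisch bodies and the pollen wall, and the anther wax gene WDA1 had log2 ratios of -0.26 and -0.41. These genes, all within 2-fold except PDA1/OsABCG15, were abundant in the anthers of both cultivars.

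Of 14 tapetum regulators, 4 were higher in S.AND COLD by at least 2-fold and 0 in ERY COLD, against 6.60% and 6.51% of all genes, with a median log2 ratio of 0.27. OsMYB103, a tapetal MYB factor gene, had 11.2 RPKM in S.AND COLD and 0.158 RPKM in ERY COLD (log2 ratio 6.14), against 31.2 RPKM in S.AND CONTROL and 0.185 RPKM in ERY CONTROL. PTC1, which encodes a PHD-finger regulator of tapetal death, had 16.4 RPKM in S.AND COLD and 2.97 RPKM in ERY COLD, against 37.0 RPKM in S.AND CONTROL and 1.42 RPKM in ERY CONTROL. OsTDF1, another MYB factor gene of the tapetum, had 7.45 RPKM in S.AND COLD and 1.41 RPKM in ERY COLD, against 19.7 RPKM in S.AND CONTROL and 1.03 RPKM in ERY CONTROL. In these 3 genes the S.AND level was lower in COLD than in CONTROL, and the cultivars were nearer to each other in COLD. The protease gene OsCP1, which acts during tapetal breakdown, had 25.7 RPKM in S.AND COLD and 7.80 RPKM in ERY COLD (log2 ratio 1.72).

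The helix-loop-helix regulators were closer in level. TDR, a central activator of tapetal degeneration, had 295 RPKM in S.AND COLD and 265 RPKM in ERY COLD, and UDT1 had 68.2 RPKM in S.AND COLD and 52.0 RPKM in ERY COLD. TIP2/bHLH142 had 32.5 RPKM in S.AND COLD and 32.6 RPKM in ERY COLD. EAT1/DTD, which drives tapetal cell death, was the most different of them, with 169 RPKM in S.AND COLD and 93.3 RPKM in ERY COLD (log2 ratio 0.86). The floral organ gene OsMADS3, the most abundant of the list, had 418 RPKM in S.AND COLD and 455 RPKM in ERY COLD. Among the 4 receptors and ligands of anther cell fate, TMS10L had 84.2 RPKM in S.AND COLD and 42.1 RPKM in ERY COLD, and the ligand gene OsTDL1A had 7.76 RPKM in S.AND COLD and 13.5 RPKM in ERY COLD.

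**Figure D2:**
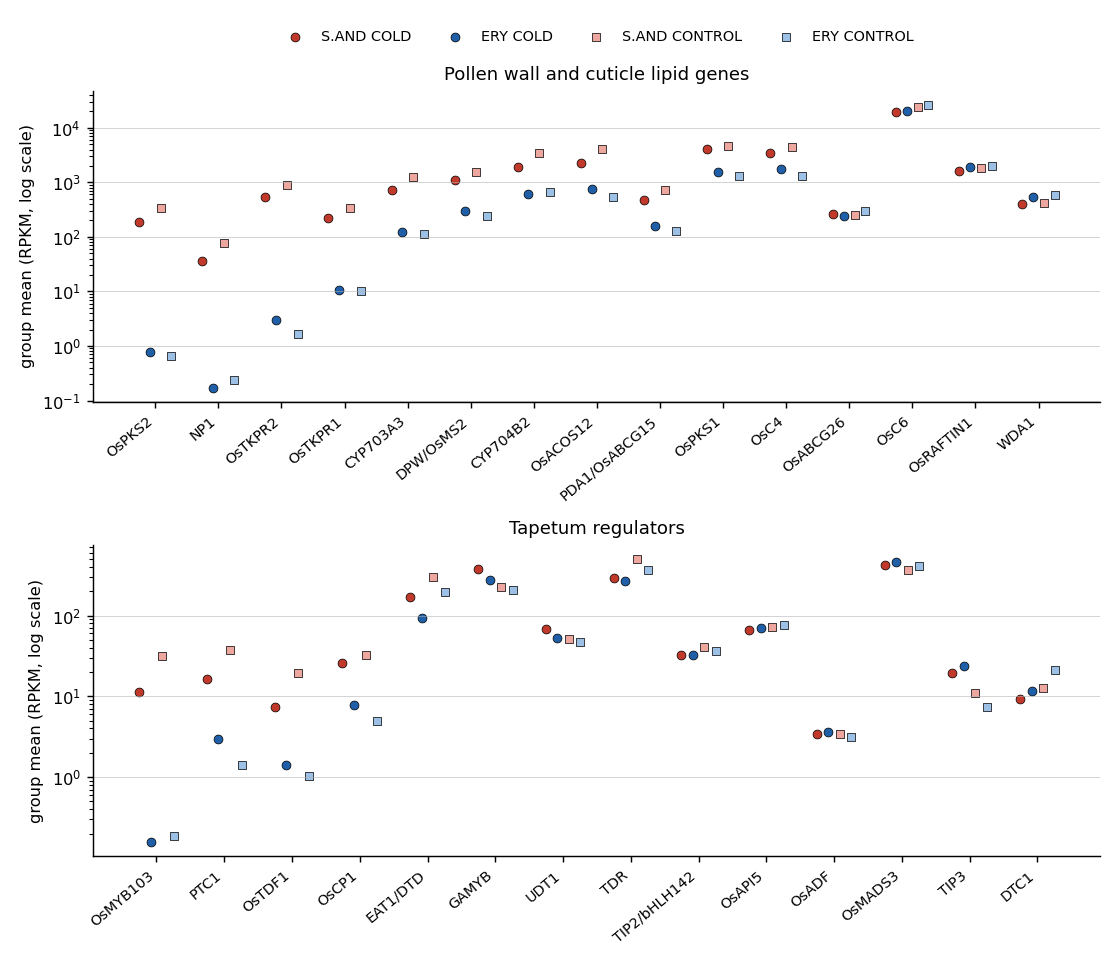
Group means in RPKM on a log scale for the 15 pollen wall and cuticle lipid genes (upper panel) and the 14 tapetum regulators (lower panel), ordered from the highest to the lowest COLD ratio; circles are S.AND COLD and ERY COLD and squares are S.AND CONTROL and ERY CONTROL. OsPKS2, NP1 and OsTKPR2 lie over 100-fold apart between the cultivars, whereas OsC6, TDR and OsMADS3 overlap.

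Sugar and starch genes were mostly within 2-fold in the cold, as were 86.9% of all genes. Of 10 sugar supply genes, 0 were higher in S.AND COLD by at least 2-fold and 1 in ERY COLD, with a median log2 ratio of 0.14. That gene was the monosaccharide transporter gene OsMST8, with 118 RPKM in S.AND COLD and 313 RPKM in ERY COLD, against 57.9 RPKM in S.AND CONTROL and 258 RPKM in ERY CONTROL. CSA, a MYB factor gene of sugar partitioning in anthers, had 513 RPKM in S.AND COLD and 357 RPKM in ERY COLD. The invertase gene OsINV4 differed between the cultivars in the other treatment: it had 26.1 RPKM in S.AND COLD and 21.4 RPKM in ERY COLD, but 11.8 RPKM in S.AND CONTROL and 76.3 RPKM in ERY CONTROL. Of 23 starch synthesis genes, 21 were within 2-fold and the median was -0.01. OsBEIIb, a starch branching enzyme gene, had 46.4 RPKM in S.AND COLD and 18.8 RPKM in ERY COLD. OsGBSSI, the granule-bound starch synthase that makes amylose, had 0.0561 RPKM in S.AND COLD and 2.60 RPKM in ERY COLD, against 0.182 RPKM in S.AND CONTROL and 5.15 RPKM in ERY CONTROL. OsUGP2, a UDP-glucose pyrophosphorylase gene of pollen starch filling, was also higher in ERY, with 16.8 RPKM in S.AND COLD and 38.1 RPKM in ERY COLD, and was the only one past 2-fold among 10 callose, cell wall and other anther genes. All 4 starch breakdown genes were within 2-fold.

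Most ethylene genes were within 2-fold, as were 86.9% of all genes. Ethylene is made by ACC synthases and ACC oxidases, sensed by membrane receptors, and passed on through EIN2 and EIL factors to ERF transcription factors. Of the 7 expressed synthesis genes, 0 were higher in S.AND COLD by at least 2-fold and 2 in ERY COLD (6.51% of all genes were so), with a median log2 ratio of -0.54 in COLD and -1.12 in CONTROL. The ACC oxidase gene OsACO4 had 3.01 RPKM in S.AND COLD and 17.9 RPKM in ERY COLD (log2 ratio -2.57), against 1.75 RPKM in S.AND CONTROL and 5.86 RPKM in ERY CONTROL. OsACO2, the most abundant oxidase gene, had 74.5 RPKM in S.AND COLD and 108 RPKM in ERY COLD, a difference of under 2-fold. The other gene past 2-fold, OsACO3, was rare, with 0.152 RPKM in S.AND COLD and 1.09 RPKM in ERY COLD. The main ACC synthase gene of these anthers, OsACS6, had 26.9 RPKM in S.AND COLD and 25.5 RPKM in ERY COLD.

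Of 7 sensing genes, 1 was higher in S.AND COLD by at least 2-fold, the receptor gene OsETR3, with 10.6 RPKM in S.AND COLD and 4.82 RPKM in ERY COLD. The most abundant receptor gene, OsERS1, had 111 RPKM in S.AND COLD and 103 RPKM in ERY COLD. Of 12 signal transduction genes, 11 were within 2-fold, among them OsEIN2, with 46.6 RPKM in S.AND COLD and 48.6 RPKM in ERY COLD, and OsEIL2, with 202 RPKM in S.AND COLD and 220.3 RPKM in ERY COLD. The exception was the kinase gene OsCTR1, a negative regulator of the pathway, with 2.33 RPKM in S.AND COLD and 4.67 RPKM in ERY COLD. Of 7 known ERF factor genes, 6 were within 2-fold, among them OsERF3, with 249 RPKM in S.AND COLD and 285 RPKM in ERY COLD. Ethylene-related factors at the end of the pathway were a little lower in S.AND COLD in most cases. Of 13 such factors chosen by the study for their cold response in ERY, 11 had a ratio below 0 and the median was -0.41, while in CONTROL anthers the median was 0.60. OsERF64, the most abundant, had 735 RPKM in S.AND COLD and 1023 RPKM in ERY COLD, against 291 RPKM in S.AND CONTROL and 265 RPKM in ERY CONTROL. OsbHLH077 had 20.3 RPKM in S.AND COLD and 41.9 RPKM in ERY COLD, and OsERF87 went the other way, with 14.5 RPKM in S.AND COLD and 6.54 RPKM in ERY COLD. Because their response in ERY put them on the list, the direction of this median is not independent evidence.

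The remaining groups were formed from the words of gene descriptions. Such descriptions accompany genes called cold-changed in at least one cultivar. Of 1459 described genes, 1451 were expressed in the COLD anthers. Among the 1441 with both COLD means above 0, 54 (3.75%) were higher in S.AND COLD by at least 2-fold and 90 (6.25%) in ERY COLD. These shares are the background for the groups below, whose genes were all picked on these samples.

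The described light-harvesting genes were all lower in S.AND COLD. A cold change called by the study put them in the group. The paper also reports that most photosynthesis genes changed in only a single cultivar fell in S.AND. The direction is therefore not independent evidence, nor does it cover light-harvesting genes outside the group. All 10 antenna genes, which encode chlorophyll A-B binding proteins, had a ratio below 0, 5 of them were at least 2-fold higher in ERY COLD, and the median was -1.0. LOC_Os09g17740 had 14.7 RPKM in S.AND COLD and 50.6 RPKM in ERY COLD (log2 ratio -1.78), against 112 RPKM in S.AND CONTROL and 193 RPKM in ERY CONTROL. LOC_Os03g39610 had 20.5 RPKM in S.AND COLD and 58.2 RPKM in ERY COLD (log2 ratio -1.50), against 89.9 RPKM in S.AND CONTROL and 118 RPKM in ERY CONTROL. The most abundant, LOC_Os01g41710, differed from the others in being higher in COLD than in CONTROL, with 76.8 RPKM in S.AND COLD and 157 RPKM in ERY COLD, against 31.6 RPKM in S.AND CONTROL and 56.0 RPKM in ERY CONTROL. Over the group the summed level was 202 RPKM in S.AND COLD and 433 RPKM in ERY COLD, against 875 RPKM in S.AND CONTROL and 1111 RPKM in ERY CONTROL. Of 9 photosystem genes, 7 had a ratio below 0 and 0 passed 2-fold, with a median of -0.67 in COLD and 0.29 in CONTROL. The oxygen-evolving enhancer gene LOC_Os01g31690 had 48.1 RPKM in S.AND COLD and 76.7 RPKM in ERY COLD, although it had 174 RPKM in S.AND CONTROL and 152 RPKM in ERY CONTROL. In dissected anthers, a different amount of green wall tissue and a different level per cell cannot be told apart.

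Transcription factor families pointed in several directions. Of 8 WRKY genes, a family of defence regulators, 2 were higher in S.AND COLD by at least 2-fold and 0 in ERY COLD, with a median of 0.22 in COLD and 1.28 in CONTROL. WRKY45 (LOC_Os05g25770), a regulator of disease resistance, had 127 RPKM in S.AND COLD and 27.4 RPKM in ERY COLD (log2 ratio 2.22), against 18.7 RPKM in S.AND CONTROL and 3.81 RPKM in ERY CONTROL. WRKY71 (LOC_Os02g08440) had 26.5 RPKM in S.AND COLD and 11.9 RPKM in ERY COLD. For the other WRKY genes the cultivars were within 2-fold in the cold, as for WRKY7 (LOC_Os05g46020), with 55.3 RPKM in S.AND COLD and 42.0 RPKM in ERY COLD.

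In the NAC family, 1 of 12 genes was higher in S.AND COLD by at least 2-fold and 2 in ERY COLD, with a median of 0.10. LOC_Os11g08210 had 38.8 RPKM in S.AND COLD and 96.2 RPKM in ERY COLD, against 5.04 RPKM in S.AND CONTROL and 9.25 RPKM in ERY CONTROL. The AP2/ERF family, which includes cold and ethylene regulators, had a median of -0.31 over 24 genes in COLD and 0.39 in CONTROL, with 2 genes at least 2-fold higher in each cultivar in COLD. Most of these 24 genes were already counted in the ethylene and starch lists above, so these medians are not a separate result. Of 25 MYB genes, 23 were within 2-fold, 0 were past it toward S.AND COLD and 2 toward ERY COLD, with a median of 0.20. LOC_Os06g51260, one of the 2 that were higher in ERY COLD, had 4.81 RPKM in S.AND COLD and 12.6 RPKM in ERY COLD, but 35.9 RPKM in S.AND CONTROL and 34.9 RPKM in ERY CONTROL. Of 7 heat shock factor genes, LOC_Os01g53220 was the one past 2-fold, with 23.6 RPKM in S.AND COLD and 48.8 RPKM in ERY COLD, although the CONTROL levels were 6.36 RPKM in S.AND and 6.38 RPKM in ERY. All 7 C2H2 zinc finger, 9 CCT or B-box, 10 homeobox and 8 Aux/IAA genes were within 2-fold.

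Among the described signalling and hormone genes, a 12-oxophytodienoate reductase gene stood far toward ERY COLD, while the group medians were near 0 at the minimum of 1 RPKM. Of 5 jasmonate genes, 2 were at least 2-fold higher in ERY COLD and 0 in S.AND COLD, with a median of 0.00. With a minimum of 5 RPKM that median was -0.53. The 12-oxophytodienoate reductase gene LOC_Os06g11240, whose relatives catalyse a step of jasmonate synthesis, had 0.562 RPKM in S.AND COLD and 44.6 RPKM in ERY COLD (log2 ratio -6.31), against 0.458 RPKM in S.AND CONTROL and 5.50 RPKM in ERY CONTROL. A second member of the family, LOC_Os06g11290, had 15.6 RPKM in S.AND COLD and 34.9 RPKM in ERY COLD (log2 ratio -1.16). The jasmonate receptor gene LOC_Os03g15880, described as coronatine-insensitive, was level, with 79.1 RPKM in S.AND COLD and 74.0 RPKM in ERY COLD. Protein phosphatase 2C genes are a class that includes regulators of abscisic acid signalling. Of 9 such genes, 2 were at least 2-fold higher in ERY COLD and 0 in S.AND COLD, with a median of -0.06. LOC_Os09g15670 had 21.8 RPKM in S.AND COLD and 70.4 RPKM in ERY COLD, against 11.7 RPKM in S.AND CONTROL and 10.1 RPKM in ERY CONTROL. LOC_Os03g16170 had 46.9 RPKM in S.AND COLD and 109 RPKM in ERY COLD, against 39.4 RPKM in S.AND CONTROL and 22.6 RPKM in ERY CONTROL. In this pair the cultivars were within 2-fold after the control night, with S.AND the higher, and apart after the cold night, with ERY the higher. Of the calcium signalling genes, 20 of 21 calcium and calmodulin genes and all 11 CAMK kinase genes were within 2-fold. The exception was a calmodulin binding protein gene, LOC_Os12g36110, with 49.7 RPKM in S.AND COLD and 19.8 RPKM in ERY COLD. Among described genes at large, only 3.75% were past 2-fold toward S.AND COLD and 6.25% toward ERY COLD.

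Described cell wall enzymes leaned toward ERY COLD in number but not in summed level. Of 27 genes for enzymes that degrade or loosen cell walls, 7 were at least 2-fold higher in ERY COLD and 0 in S.AND COLD, with a median of -0.42. Their sums were 2205 RPKM in S.AND COLD and 2271 RPKM in ERY COLD. In CONTROL the median was -0.01, with 2 genes past 2-fold toward S.AND and 4 toward ERY. The paper reports that most cell wall genes changed in only a single cultivar fell in S.AND, so this lean is not independent evidence. LOC_Os01g71810, a glycosyl hydrolase gene, had 16.2 RPKM in S.AND COLD and 41.0 RPKM in ERY COLD, and the mannanase gene OsMan01 (LOC_Os01g47400) had 24.0 RPKM in S.AND COLD and 55.8 RPKM in ERY COLD. A pectinesterase gene, LOC_Os08g12410, had 7.22 RPKM in S.AND COLD and 18.8 RPKM in ERY COLD. The most abundant enzyme gene went the other way: LOC_Os06g48200, of glycosyl hydrolase family 16, had 1331 RPKM in S.AND COLD and 875 RPKM in ERY COLD. Of 4 histone genes, all had a ratio below 0 and 1 passed 2-fold, a histone H3 gene (LOC_Os06g06460) with 5.18 RPKM in S.AND COLD and 13.5 RPKM in ERY COLD. Peroxidase and glutathione transferase genes had a median of -0.54 over 13 genes, but sums of 1060 RPKM in S.AND COLD and 1015 RPKM in ERY COLD. By at least 2-fold, 0 were higher in S.AND COLD and 2 in ERY COLD. Among them, the transferase gene LOC_Os01g27210 had 32.6 RPKM in S.AND COLD and 70.5 RPKM in ERY COLD.

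Of 30 described defence genes, 4 were higher in S.AND COLD by at least 2-fold and 3 in ERY COLD, with a median of -0.03. Over all described genes these shares were 3.75% and 6.25%. Both described genes for ribosome inactivating proteins were higher in S.AND COLD by at least 2-fold. One of them, LOC_Os03g47460, had 72.2 RPKM in S.AND COLD and 8.90 RPKM in ERY COLD (log2 ratio 3.02), against 179.7 RPKM in S.AND CONTROL and 25.2 RPKM in ERY CONTROL. The other, LOC_Os10g24050, was level in the CONTROL anthers, with 26.3 RPKM in S.AND and 25.1 RPKM in ERY, but had 12.2 RPKM in S.AND COLD and 4.05 RPKM in ERY COLD. In the cold, 44 of 47 membrane transporter genes were within 2-fold, 1 was higher in S.AND COLD and 2 in ERY COLD. These counts are close to the shares over described genes at large (3.75% and 6.25%). In CONTROL anthers 10 of the 47 exceeded 2-fold toward S.AND and 1 toward ERY. The peptide transporter gene LOC_Os03g04570 had 4.22 RPKM in S.AND COLD and 11.5 RPKM in ERY COLD, against 1.13 RPKM in S.AND CONTROL and 1.05 RPKM in ERY CONTROL. All 15 genes with an RNA recognition motif and all 6 trehalose synthesis genes were within 2-fold.

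**Figure D3:**
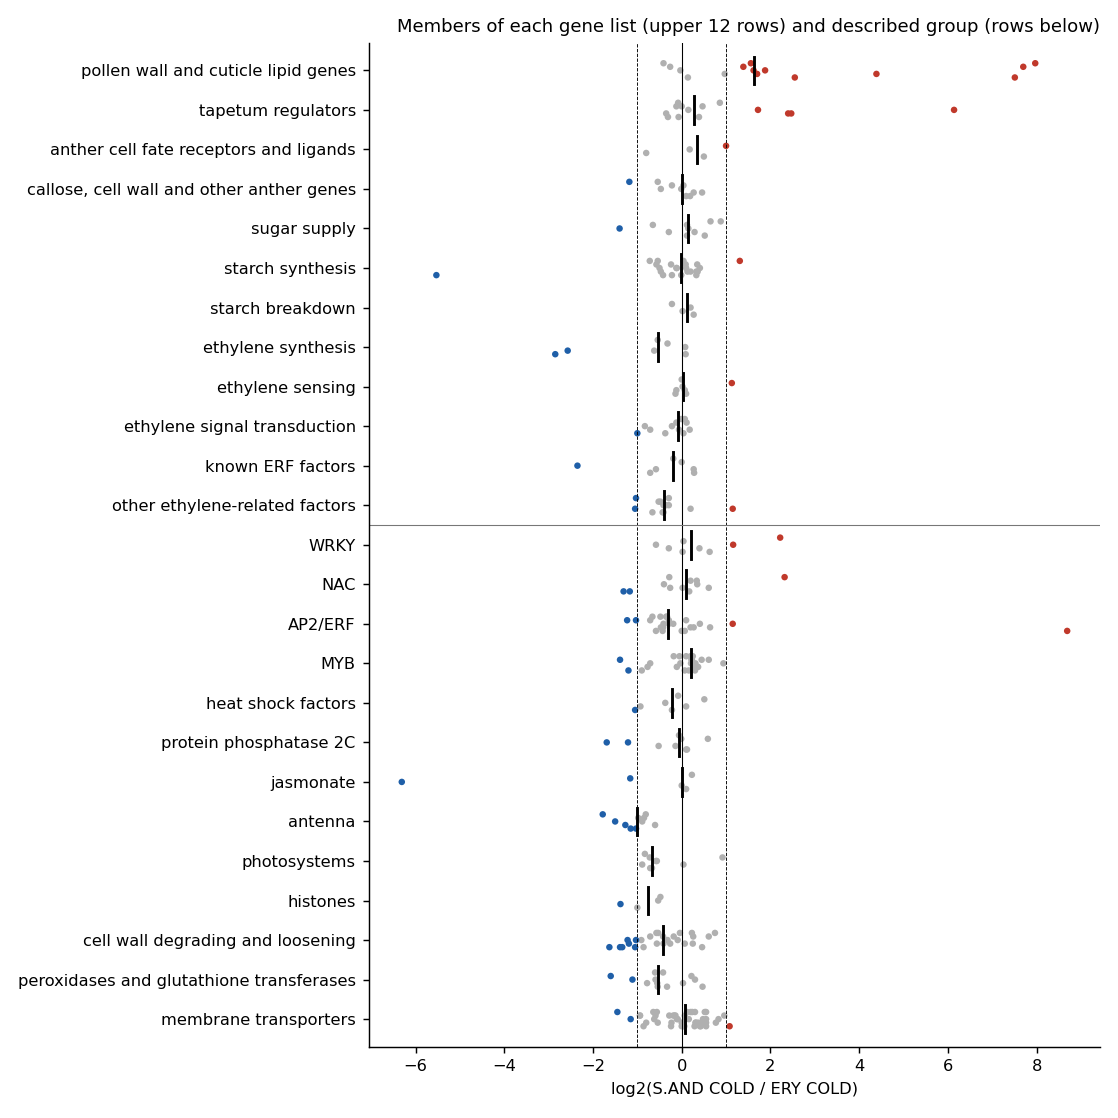
Each point is an expressed gene placed by log2(S.AND COLD / ERY COLD) on the horizontal axis, with one row per gene list (upper 12 rows) or per group formed from descriptions (rows below), short black bars at the medians and dashed lines at 2-fold. Pollen wall genes spread to the right (median 1.62) and all 10 antenna genes lie left of 0 (median -1.0), while most other rows centre near 0.

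Single described genes outside these groups were also far apart. By a rule that took the 12 highest and 12 lowest ratios among 890 described or listed genes with at least 10 RPKM in the higher COLD group, which left out genes described as expressed, hypothetical or transposon proteins or by a domain of unknown function, the S.AND side added 4 such genes to those above. An aspartic proteinase nepenthesin precursor gene, LOC_Os04g37570, had 61.3 RPKM in S.AND COLD and 1.18 RPKM in ERY COLD (log2 ratio 5.70), against 186 RPKM in S.AND CONTROL and 2.65 RPKM in ERY CONTROL. The RING finger gene LOC_Os01g50750 had 24.5 RPKM in S.AND COLD and 1.88 RPKM in ERY COLD (log2 ratio 3.70). An alpha/beta hydrolase gene, LOC_Os04g37680, had 32.8 RPKM in S.AND COLD and 2.61 RPKM in ERY COLD (log2 ratio 3.65). The dihydroflavonol-4-reductase gene LOC_Os06g41800 had 37.2 RPKM in S.AND COLD and 3.35 RPKM in ERY COLD (log2 ratio 3.47), against 127 RPKM in S.AND CONTROL and 7.92 RPKM in ERY CONTROL. All 4 were higher in S.AND CONTROL by at least 2-fold too.

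On the ERY side, a kinesin motor gene, LOC_Os09g25380, had 2.45 RPKM in S.AND COLD and 16.5 RPKM in ERY COLD (log2 ratio -2.76), against 2.12 RPKM in S.AND CONTROL and 37.2 RPKM in ERY CONTROL. The cytochrome P450 gene LOC_Os11g05380 had 24.2 RPKM in S.AND COLD and 96.0 RPKM in ERY COLD (log2 ratio -1.99), against 12.9 RPKM in S.AND CONTROL and 24.4 RPKM in ERY CONTROL. It was higher in COLD than in CONTROL in both cultivars. A NUDIX hydrolase gene, LOC_Os06g14420, had 9.87 RPKM in S.AND COLD and 31.4 RPKM in ERY COLD, and the Hsp70 (DnaK) chaperone gene LOC_Os01g62290 had 26.8 RPKM in S.AND COLD and 72.4 RPKM in ERY COLD. That chaperone gene had 109 RPKM in S.AND CONTROL and 209.9 RPKM in ERY CONTROL. Larger ratios belonged to loci without a description. LOC_Os02g26790 had 0.0225 RPKM in S.AND COLD and 54.7 RPKM in ERY COLD (log2 ratio -11.25), and LOC_Os05g16550 had 0.0274 RPKM in S.AND COLD and 54.2 RPKM in ERY COLD (log2 ratio -10.95). In the other direction LOC_Os06g03165 had 12.5 RPKM in S.AND COLD and 0.00850 RPKM in ERY COLD (log2 ratio 10.52), and LOC_Os08g31910 had 27.3 RPKM in S.AND COLD and 0.0187 RPKM in ERY COLD (log2 ratio 10.51). All 4 of these loci were at least 2-fold apart in the same direction in the CONTROL anthers.

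Most large differences after the cold night were also present after the control night. Of 406 genes at least 8-fold higher in S.AND COLD, 362 (89.2%) were higher in S.AND CONTROL by at least 2-fold. Of 338 genes at least 8-fold higher in ERY COLD, 303 (89.6%) were at least 2-fold higher in ERY CONTROL. Together these are 665 of 744 genes (89.4%, 95% Wilson interval 87.0% to 91.4%, which treats genes as independent and covers counting alone). Most of the remainder could not show a CONTROL ratio, since a CONTROL mean was listed at 0 for 39 of those 406 genes and 29 of those 338. Within 2-fold in CONTROL were 3 of the 406 and 5 of the 338, and 2-fold apart in the opposite direction were 2 of the 406 and 1 of the 338. Among all 23987 expressed genes with a CONTROL ratio, 9.80% were higher in S.AND CONTROL by at least 2-fold and 6.79% in ERY CONTROL. Across these genes the COLD and CONTROL log2 ratios had a Pearson r of 0.87, a description of points that share cultivar, gene models and scaling.

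Shares for smaller differences are given beside these and were not tested against each other. Of 288 genes from 4-fold to 8-fold higher in S.AND COLD, 269 (93.4%) were higher in S.AND CONTROL by at least 2-fold, and of 211 such genes in ERY COLD, 165 (78.2%) were at least 2-fold higher in ERY CONTROL. Of 894 genes from 2-fold to 4-fold higher in S.AND COLD, 685 (76.6%) were higher in S.AND CONTROL by at least 2-fold, whereas of 1018 such genes in ERY COLD, 507 (49.8%) were at least 2-fold higher in ERY CONTROL. Opposite directions were rare, in 12 of the 1588 genes higher in S.AND COLD and 36 of the 1567 genes higher in ERY COLD. Seen from the CONTROL side, 1316 of 2350 genes that were higher in S.AND CONTROL by at least 2-fold were also so in COLD, and 998 were within 2-fold in COLD. For ERY CONTROL, 975 of 1628 genes were also at least 2-fold higher in ERY COLD, and 641 were within 2-fold there.

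**Figure D4:**
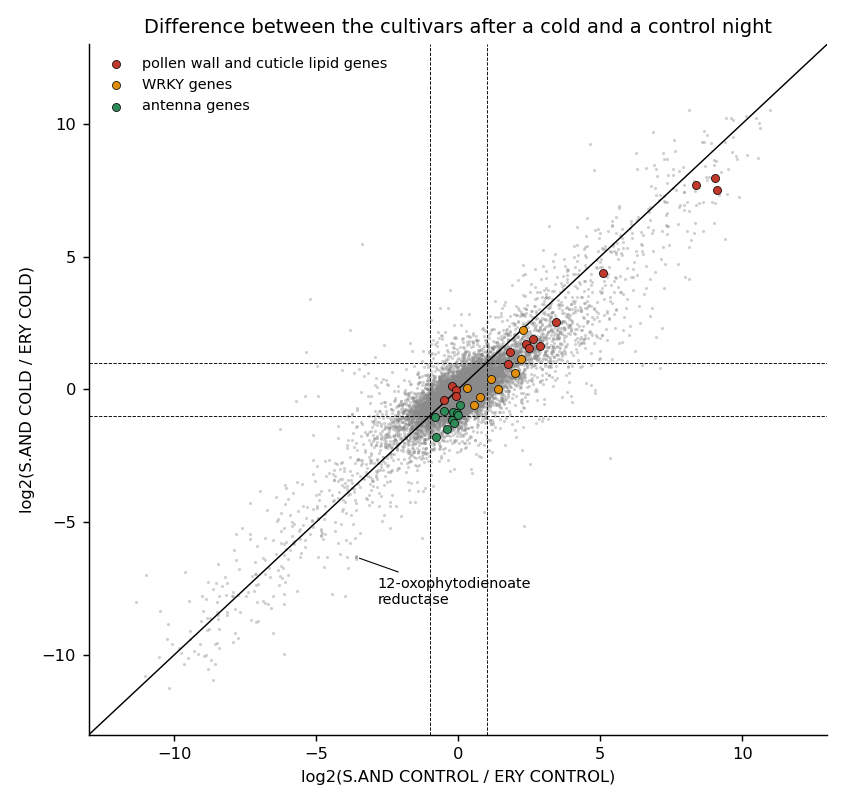
Each grey point is an expressed gene, with log2(S.AND COLD / ERY COLD) on the vertical axis and log2(S.AND CONTROL / ERY CONTROL) on the horizontal axis, a solid line at equal ratios and dashed lines at 2-fold. Of 15 pollen wall genes (red), 10 lie at or past 2-fold toward S.AND COLD and others, such as OsC6, lie near 0, WRKY genes (orange) lie further from 0 on the CONTROL axis than on the COLD axis (medians 1.28 and 0.22), and antenna genes (green) lie lower in COLD (median -1.0) than in CONTROL (median -0.20).

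Large differences also came in blocks of neighbouring loci. With expressed genes put in the order of their locus numbers, 25 runs of 3 or more neighbours were each at least 4-fold apart in the same direction (2.88% of genes were that far toward S.AND COLD and 2.28% toward ERY COLD). The runs held 95 loci, 60 in 16 runs toward S.AND COLD and 35 in 9 runs toward ERY COLD. In CONTROL anthers 87 of the 95 loci were at least 2-fold apart in the same direction, and 7 of the others had a CONTROL mean at 0 and so no ratio. The longest run held 9 loci at the beginning of chromosome 11 and included OsFAD3. The beginnings of chromosomes 11 and 12 are near-identical copies in rice, so reads of these loci may have been shared with the other copy. The same holds for a nearby run of 3 loci toward S.AND COLD, LOC_Os11g01470 to LOC_Os11g01490. The log2 ratios of the 9 loci were between 5.70 and 9.56, and all 9 were higher in S.AND CONTROL by at least 2-fold. MARbp lay in a run of 3 loci on chromosome 12 with a median of -9.91, and the longest run toward ERY COLD held 6 loci on chromosome 1 with a median of -6.66. The undescribed LOC_Os05g16550 stood in a run of 5 loci on chromosome 5 toward ERY COLD, and LOC_Os06g03165 in a run of 4 loci on chromosome 6 toward S.AND COLD. Whether each run marks a stretch of sequence that one cultivar lacks was not tested, since no genome of either cultivar was used here.

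By chromosome, the share of genes at least 4-fold apart was lowest on chromosome 2, with 1.42% toward S.AND COLD and 1.53% toward ERY COLD of 2816 genes. Chromosome 11 had 5.45% toward S.AND COLD and 4.74% toward ERY COLD of 1414 genes. Of its 77 genes that far toward S.AND COLD, 15 lie in its first stretch, LOC_Os11g01180 to LOC_Os11g01510. Reads there may have been shared with the near-identical beginning of chromosome 12, so the S.AND share of chromosome 11 is uncertain. On chromosome 10 the ERY side was larger, with 3.99% toward S.AND COLD and 5.19% toward ERY COLD of 1253 genes, and on chromosome 7 the S.AND side, with 4.27% toward S.AND COLD and 1.92% toward ERY COLD of 1875 genes.

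**Figure D5:**
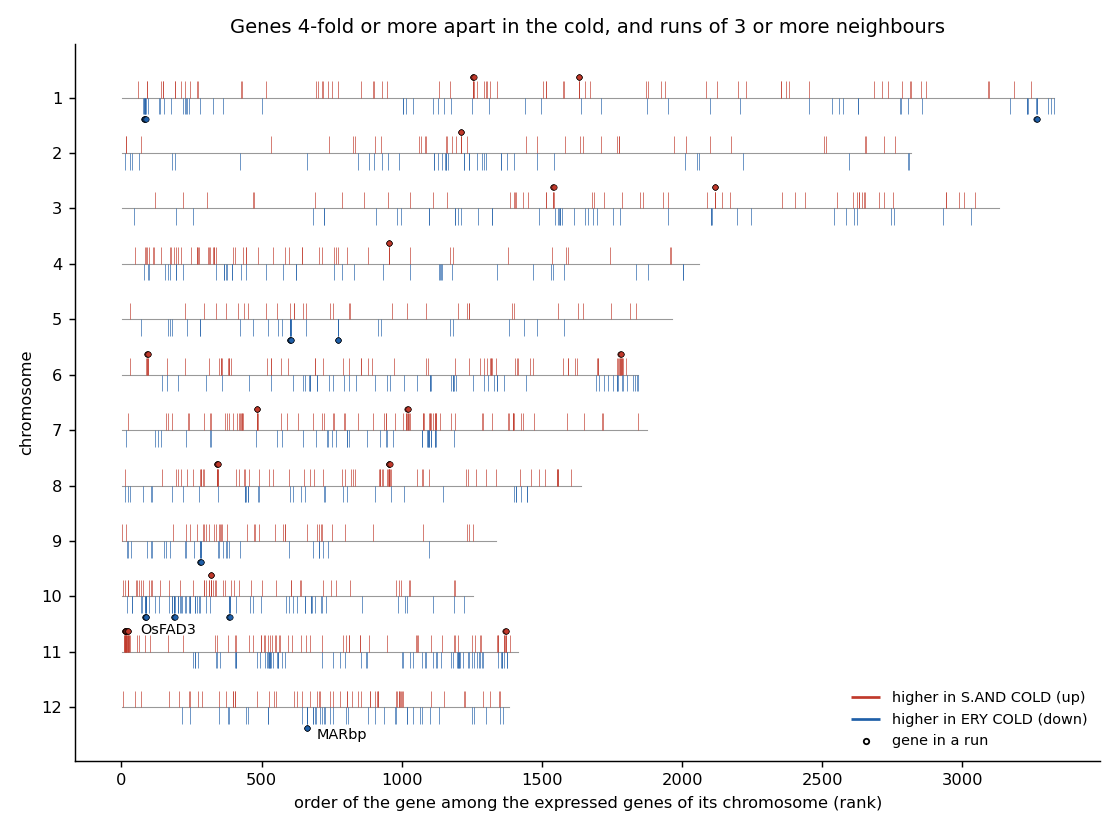
Expressed genes of each chromosome in the order of their locus numbers (rank, horizontal axis); upward red ticks are genes higher in S.AND COLD by at least 4-fold, downward blue ticks are those at least 4-fold higher in ERY COLD, and circles are genes in a run of 3 or more neighbours. The 25 runs are spread over all 12 chromosomes, and the run of 9 loci with OsFAD3 stands at the beginning of chromosome 11.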

How the data were processed

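Total RNA of pooled anthers was made into poly(A) libraries and sequenced as single 50 bp reads. Per the authors' methods, reads were processed in CLC Genomics Workbench 4.7.1 against the MSU 7.0 gene models and each gene was expressed as RPKM, normalised by total reads. The deposited RPKM table holds one mean per group (4 columns used) and 0 columns of values per sample, so no depth, spread or test could be had. Each column sums to 999998 to 1000000, a property of TPM rather than of RPKM, so the exact scaling is uncertain. Between groups this scaling works on the total, and levels of different genes are per length. The table's columns of fold change and FDR hold the authors' comparison of COLD with CONTROL and were not used.

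Here log2 ratios of the means were computed with no pseudocount for genes with at least 1 RPKM in one COLD group and both COLD means above 0. Genes at 0 were counted apart. Lists come from the study's gene lists, and groups from words in its descriptions of genes it called cold-changed. The members and lists were chosen with earlier results of these data known. Named are the 12 highest and 12 lowest ratios among genes with at least 10 RPKM that are listed or have an informative description (not expressed, hypothetical or transposon protein or a domain of unknown function), list members with large ratios (at most 5 per list, at least 5 RPKM, and the most abundant), the qRT-PCR genes, up to 4 described genes at 0 each way and at most 2 undescribed loci each way. Other members of the pollen wall, tapetum, sugar, starch and ethylene lists were named for their role, after their values were seen. Runs used locus numbers, and 0 loci matched the RefSeq gene table, so no coordinates, promoters or proteins are given. OsFAD3 and its neighbours may share reads with near-identical copies on chromosome 12, and such genes are uncertain. The code was tested on simulated data with 200 planted differences. Python 3.11.15, NumPy 2.4.6, pandas 2.3.3 and Matplotlib 3.10.9 were used. Alternatives changed the minimum level, the pseudocount, the scaling, the fold and the length of runs.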

Additional observations from a re-analysis of the deposited data

How the results depend on the processing

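No paired analysis was possible because only group means were analysed, and for the same reason no sample could be left out. The count of genes at least 2-fold higher in S.AND COLD (1588) was 721 with a minimum of 5 RPKM, 478 with 10 RPKM and 4412 with none, and 2597 at 1.5-fold and 694 at 4-fold. For ERY COLD (1567) the counts were 758, 503 and 3754 with those minimums, 3338 at 1.5-fold, 549 at 4-fold and 1035 with a pseudocount of 1 RPKM. Fewer or more genes could pass by construction. Among genes 2-fold apart, 50.3% were higher in S.AND COLD, and 48.7% to 54.0% were so under the other minimums, pseudocounts and scalings. The share of differences of 8-fold or more also found in CONTROL (89.4%) was 94.9% with a minimum of 5 RPKM, 96.3% with 10 RPKM, 77.4% with none, and 99.5% and 99.6% with pseudocounts of 0.1 and 1 RPKM. The number of runs (25) was 13 when each locus had to be at least 8-fold apart and 9 when a run needed 4 loci. Of 301 list medians under 7 alternatives, 300 moved by under 1.5-fold. The exception was that of 7 lipid transfer genes, -0.50 on the log2 scale, which was 0.10 with a minimum of 10 RPKM, so no direction is given for that group. The unknown number of reads limits all ratios against means under 1 RPKM.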

Other observations

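Beside the run that holds OsFAD3, the first loci of chromosomes 11 and 12 were set side by side, since these chromosome ends are known near-identical copies in rice. The stretch was chosen after its values were seen. On chromosome 11, 21 expressed genes had summed levels of 978 RPKM in S.AND COLD and 104 RPKM in ERY COLD, and 15 of the 19 with a ratio were higher in S.AND COLD by 4-fold or more (median log2 ratio 7.89). At the same locus numbers on chromosome 12, 23 expressed genes summed to 828 RPKM in S.AND COLD and 1666 RPKM in ERY COLD, and 22 of them had a ratio below 0 (median log2 ratio -0.94, from -1.66 to 0.75). None of those 23 was 4-fold apart. How reads were divided between the copies was not tested.

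Transposon-related genes among the described genes held some of the widest ratios. LOC_Os05g38260, a retrotransposon protein gene, had 12.8 RPKM in S.AND COLD and 0.0157 RPKM in ERY COLD (log2 ratio 9.67), against 2.77 RPKM in S.AND CONTROL and 0.0237 RPKM in ERY CONTROL. Over 27 such genes with a ratio, 2 were higher in S.AND COLD by 2-fold or more and 3 in ERY COLD, with a median of -0.14. The F-box gene OsFBD16 (LOC_Os12g37110) had 0.0498 RPKM in S.AND COLD and 6.28 RPKM in ERY COLD, against 0.00740 RPKM in S.AND CONTROL and 15.1 RPKM in ERY CONTROL.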
